A study of Homo sapiens with 4 samples.

Results

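The genes described here encode enzymes that add or remove methyl groups on histone lysines, together with the core of the Polycomb complexes, in Jurkat cells depleted of the long non-coding RNA ARIEL. They were chosen by name from the deposited expression table (gene names beginning with KDM, KMT2, SETD, EZH, SUV39 or SUV420, and a short list of single names such as EED, RNF2, DOT1L and PHF6), which gave 55 of its 22361 rows once 1 row on chromosome Y was left out. Jurkat cells are an established line from a patient's T-cell leukaemia of the acute lymphoblastic kind (T-ALL). In the ARIEL knockdown group (2 libraries) the cells were infected with lentivirus carrying an shRNA against ARIEL, and in the control group (2 libraries) with lentivirus carrying an shRNA against GFP. Both groups were collected 72 h after infection, following at least 36 h in puromycin at 0.7 µg/ml. The number of hairpins per target is not given in the labels, and nothing says that replicates came from separate cultures, so the p-values reflect no more than how far these samples lie apart, which may be technical.

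Methylation of histone lysines marks chromatin states. H3K4 methylation, written by the KMT2 and SETD1 enzymes, is found at active promoters and enhancers. H3K27 methylation, written by Polycomb repressive complex 2 (PRC2), and H2A ubiquitination, written by Polycomb repressive complex 1 (PRC1), mark silenced genes, while H3K9 and H4K20 methylation are typical of heterochromatin. The KDM enzymes remove methyl groups from histone lysines. Several of these genes are altered in T-ALL: PHF6, KDM6A, EZH2, SUZ12 and EED carry loss-of-function mutations in patients, and KMT2A is rearranged in a subset of leukaemias.

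Expression is given as rlog, a regularised logarithm to base 2 in which noisy values are drawn towards the gene's mean, so that a difference understates the change. Differences are knockdown minus control, tested with limma over all 14601 rows whose rlog averaged log2 of 10 or more and called at a Benjamini-Hochberg adjusted p under 0.05. Median rlog over these rows was 11.31 and 11.32 in the knockdown libraries and 11.32 in each control library. Depth per library is unknown, since the table holds no counts. The locus XLOC_005968, which is ARIEL from background knowledge of the study and not by its name in the table, had 10.58 and 10.55 in the knockdown libraries against 12.02 and 11.91 in the control libraries, an rlog difference of -1.40 ± 0.04 (SE from limma, 2 libraries in each group, adjusted p = 1.22e-249). All 10 T-cell markers looked for were expressed, their summed linear level ranging from 271701 to 277183 in knockdown libraries and from 287894 to 291083 in control libraries. Of 5 markers each for B, myeloid and erythroid cells, 1, 2 and 1 passed the filter. Their summed linear levels were 2413 to 2446 in knockdown and 1940 to 2050 in control libraries for the B-cell list, nearly all of it CD79A, then 36.0 to 36.4 and 36.7 to 38.1 for the myeloid list and 46.3 to 46.5 and 47.8 to 49.0 for the erythroid list, while MS4A1, CSF1R and HBG1 were listed at 0. The part of these markers in the results was not tested. In bulk RNA, fewer cells of a kind and less RNA per cell cannot be told apart. How the libraries were scaled before rlog is not given. Whether a change in total RNA per cell would be visible on these values is therefore not known.

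Of the 55 genes, 53 passed the filter on low values. KDM4E, an H3K9 demethylase gene, was listed at 0 in every library, and SETD6, a methyltransferase of the NF-kappaB subunit RELA, had an rlog of -0.44 in every library. Of the 53, 12 were higher and 11 lower in knockdown cells, and 30 did not pass (limma, adjusted p under 0.05). That is 43.4% called, where 44.4% of all tested rows were called, 22.1% higher and 22.4% lower, so the share of these genes that changed was that of the genome at large. Their median difference was -0.01, beside 0.00 over all tested rows, and the median size of a difference was 0.07 in both sets. The knockdown and control values did not overlap in 43 of the 53 genes, where 70.7% of all tested rows had no overlap. In the authors' deposited table, 10 genes passed as higher and 9 as lower at the same threshold, where 39.4% of all rows with an adjusted p passed (20.1% higher and 19.3% lower), and these 19 genes were all called here in the same direction. Without ARIEL knockdown replicate 2 the counts were 6 higher and 5 lower.

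**Figure D1:**
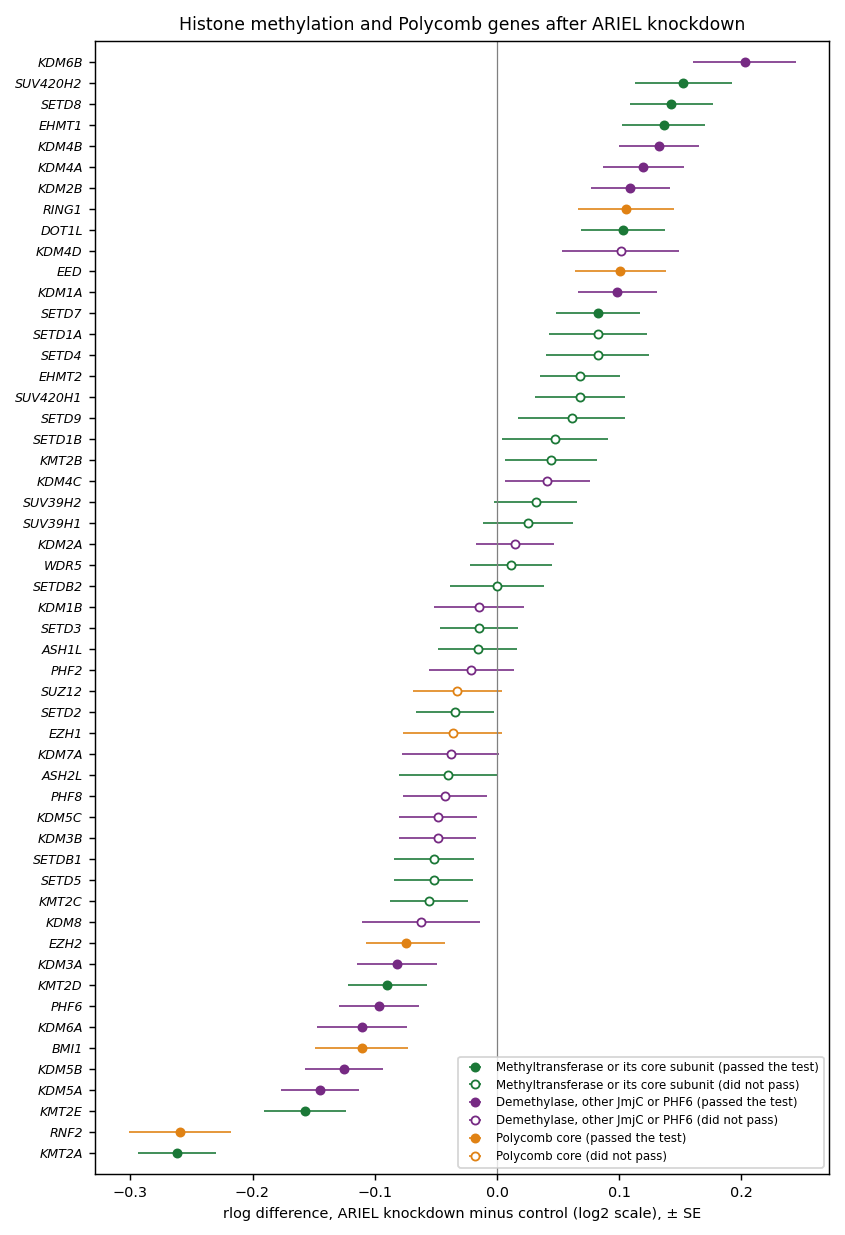
Difference in rlog expression (knockdown minus control, horizontal axis, log2 scale) with its standard error for the 53 tested genes, from the largest rise at the top to the largest fall at the bottom. Filled points passed the test; colours separate methyltransferases, demethylases with related proteins, and the Polycomb core. KMT2A and RNF2 stand at the bottom at -0.26 each and KDM6B at the top at 0.20.

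Among H3K4 methyltransferase genes, KMT2A and KMT2E were the clearest falls. KMT2A (ENSG00000118058, chromosome 11), which encodes MLL1, had rlog values of 14.07 and 14.02 in knockdown libraries and 14.25 and 14.36 in control libraries. Both knockdown values lay below both control values, and the difference of -0.26 ± 0.03 (SE; limma, adjusted p = 4.84e-15) was the largest among the 53 genes. In the authors' deposited table KMT2A was 1.39-fold lower. Its control libraries had an SD of 0.07, against 0.03 in the knockdown libraries. The spread shared by genes of its level, which gave the SE above, is smaller than its own. In a fit with each gene's own variance the SE of KMT2A was 0.06 (limma, adjusted p = 0.153). KMT2E (chromosome 7), which encodes MLL5, a protein of the family with little or no methyltransferase activity of its own, had 13.08 and 13.07 in knockdown libraries and 13.23 in each control library. It fell by 0.16 ± 0.03 (SE; limma, adjusted p = 1.42e-05), again with no overlap. KMT2D, an enhancer H3K4 monomethyltransferase, had 13.74 and 13.68 in knockdown libraries against 13.71 and 13.89 in control libraries. Its groups overlapped, and its call (-0.09 ± 0.03, SE; limma, adjusted p = 0.0147) came from the spread shared by genes of its level, which is smaller than its own. Without control replicate 2 its difference was -0.0034 (adjusted p = 0.9555), without knockdown replicate 2 it was -0.06 (0.308), and the authors' deposited table gives it an adjusted p of 0.445.

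No other H3K4 methyltransferase passed as lower. SETD7, a monomethyltransferase that also modifies non-histone proteins, was called higher at 0.08 ± 0.03 (SE; limma, adjusted p = 0.0387). That call was lost without control replicate 2 (0.07, adjusted p = 0.170) and without knockdown replicate 2 (0.05, adjusted p = 0.430). Differences that did not pass were -0.06 ± 0.03 for KMT2C, the partner of KMT2D in its family branch, 0.04 ± 0.04 for KMT2B, 0.08 ± 0.04 for SETD1A and 0.05 ± 0.04 for SETD1B. ASH2L and WDR5, subunits shared by the complexes of KMT2A to KMT2D, SETD1A and SETD1B, differed by -0.04 ± 0.04 and 0.01 ± 0.03, and neither passed. The rlog of KMT2A minus that of KMT2D in the same library was 0.33 and 0.34 in knockdown libraries and 0.54 and 0.47 in control libraries. KMT2A was therefore lower relative to KMT2D in both knockdown libraries, with a mean difference of -0.17, or of -0.10 with the trend of each library with GC content and length removed, although 2 libraries against 2 can give no two-sided p below 0.333 in an exact permutation test.

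Genes for partners of these enzymes moved in both directions. Of 12 tested subunits of H3K4 methyltransferase complexes 2 were higher and 3 lower (16.7% and 25%), where 22.1% and 22.4% of all tested rows were. Their median difference was -0.03 beside 0.00 over all tested rows. MEN1, which encodes menin, the protein that tethers MLL1 to chromatin, rose by 0.12 ± 0.04 (SE; limma, adjusted p = 0.00365), with 12.48 and 12.55 in knockdown libraries and 12.36 and 12.44 in control libraries. PAGR1, a subunit of the KMT2C and KMT2D complexes, rose by 0.12 ± 0.04, and CXXC1, which brings SETD1 complexes to CpG islands, fell by 0.10 ± 0.03. The MEN1 call was lost without control replicate 1 (0.07, adjusted p = 0.148) and without knockdown replicate 2 (0.08, 0.197), that of PAGR1 without knockdown replicate 2 (0.10, 0.149), and that of CXXC1 without control replicate 2 (-0.07, 0.137) or knockdown replicate 1 (-0.06, 0.329). Leaving out knockdown replicate 2 left 0 higher and 1 lower in this list, and leaving out knockdown replicate 1 left 0 lower.

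**Figure D2:**
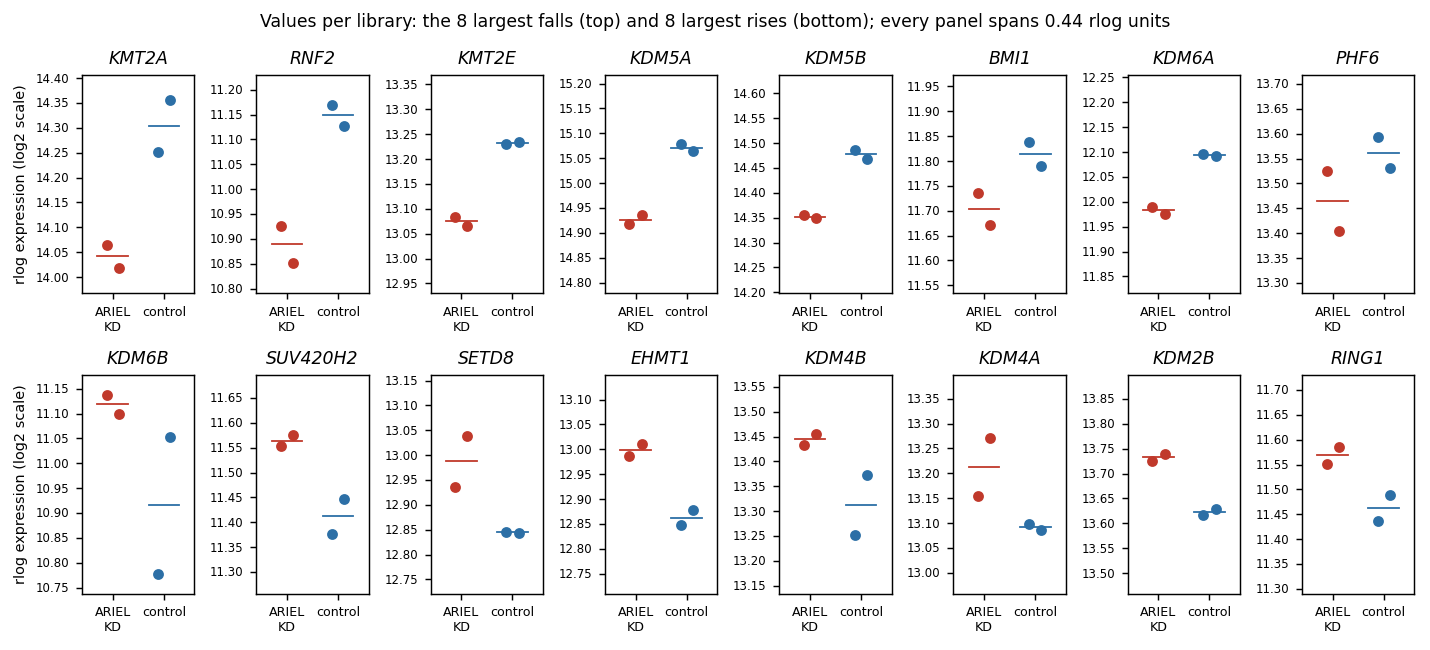
Regularised log expression (vertical axis, log2 scale) in each library for the 8 genes with the largest falls (top row) and the 8 with the largest rises (bottom row), with knockdown libraries on the left of each panel and control libraries on the right; short lines are group means. Every panel spans the same range. In all 16 genes the groups do not overlap, as in 70.7% of all tested rows. KDM6B, KDM4B, SETD8, KDM4A, PHF6 and KMT2A have replicates far apart within a group.

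H3K4 demethylase genes of the KDM5 branch were lower. KDM5A (chromosome 12), the retinoblastoma-binding H3K4 demethylase, had 14.92 and 14.94 in knockdown libraries and 15.08 and 15.06 in control libraries, a fall of 0.14 ± 0.03 (SE; limma, adjusted p = 3.00e-05). KDM5B (chromosome 1), its paralogue, had 14.36 and 14.35 in knockdown libraries against 14.49 and 14.47 in control libraries and fell by 0.13 ± 0.03 (limma, adjusted p = 0.000347). Replicates of both genes agreed closely, and the groups were well apart. KDM5C, the X-linked member, differed by -0.05 ± 0.03 and did not pass. The authors' deposited table puts KDM5A 1.20-fold and KDM5B 1.17-fold lower. KDM1A (LSD1), the flavin-dependent demethylase, went the other way, with 15.51 and 15.54 in knockdown libraries and 15.44 and 15.41 in control libraries, a rise of 0.10 ± 0.03 (limma, adjusted p = 0.00669). The KDM1A call was lost without control replicate 2 (0.08, adjusted p = 0.0828) and without knockdown replicate 2 (0.08, 0.113). KDM1B, its paralogue, differed by -0.01 ± 0.04 and did not pass.

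The core of PRC1, the complex that ubiquitinates H2A, split between its alternative catalytic subunits on the values as deposited. RNF2 (RING1B; ENSG00000121481, chromosome 1), the main E3 ligase of PRC1, had 10.93 and 10.85 in knockdown libraries and 11.17 and 11.13 in control libraries. It fell by 0.26 ± 0.04 (SE; limma, adjusted p = 7.45e-09), and the authors' deposited table puts it 1.41-fold lower. RING1 (RING1A), its paralogue on chromosome 6, had 11.55 and 11.58 in knockdown libraries against 11.44 and 11.49 in control libraries and rose by 0.11 ± 0.04 (limma, adjusted p = 0.0193). BMI1 (chromosome 10), the subunit that stimulates the ligase in canonical PRC1, had 11.74 and 11.67 in knockdown libraries and 11.84 and 11.79 in control libraries, a fall of 0.11 ± 0.04 (limma, adjusted p = 0.0107). None of the 3 genes overlapped between groups, as was so for 70.7% of all tested rows. With the trend of each library with GC content and length removed, RNF2 was still called lower (-0.18). RING1 (0.03; limma, adjusted p = 0.348) and BMI1 (-0.04, 0.227) were then not called. The rlog of RNF2 minus that of RING1 was -0.63 and -0.73 in knockdown libraries and -0.27 and -0.36 in control libraries, so the balance of the ligase transcripts differed by -0.36, or by -0.21 with the trend of each library with GC content and length removed (again with 0.333 as the smallest p that an exact permutation test allows). The BMI1 call was lost without control replicate 1 (-0.09, adjusted p = 0.103) and without knockdown replicate 2 (-0.08, 0.257). That of RING1 was lost without control replicate 1 (0.08, adjusted p = 0.158) and without knockdown replicate 1 (0.12, 0.0550) or 2 (0.09, 0.199). BMI1 shares exons with the read-through gene COMMD3-BMI1 on the same strand, and RNF2 and BMI1 each have a processed pseudogene in GENCODE 29, so reads may be split between copies.

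Other PRC1 subunits held larger rises than the core. Of 25 tested, 7 were higher and 5 lower (28% and 20%), where 22.1% and 22.4% of all tested rows were. Their median was 0.05 beside 0.00 over all tested rows. CBX6, a chromodomain reader, had 14.11 and 14.16 in knockdown libraries and 13.79 and 13.83 in control libraries, a rise of 0.33 ± 0.03 (SE; limma, adjusted p = 6.37e-23). CBX2, a chromodomain subunit that compacts nucleosomes, rose by 0.28 ± 0.03, and PHC2, a polyhomeotic subunit that polymerises PRC1, by 0.16 ± 0.03. In the authors' deposited table CBX6 was 1.50-fold and CBX2 1.43-fold higher. Without knockdown replicate 2 the lower count was 2, with no filter it was 3, and with the trend of each library with GC content and length removed 12 were higher and 4 lower. In the complex that removes ubiquitin from H2A, 2 of 8 tested members were higher and 4 lower (25% and 50%, median -0.07), beside the same 22.1% and 22.4%. FOXK2, a forkhead factor that recruits BAP1, rose by 0.30 ± 0.03, while ASXL2, a BAP1 cofactor, fell by 0.21 ± 0.04 and OGT, the O-GlcNAc transferase, fell by 0.15 ± 0.03. BAP1, the deubiquitinase itself, is among the 4 that were lower.

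**Figure D3:**
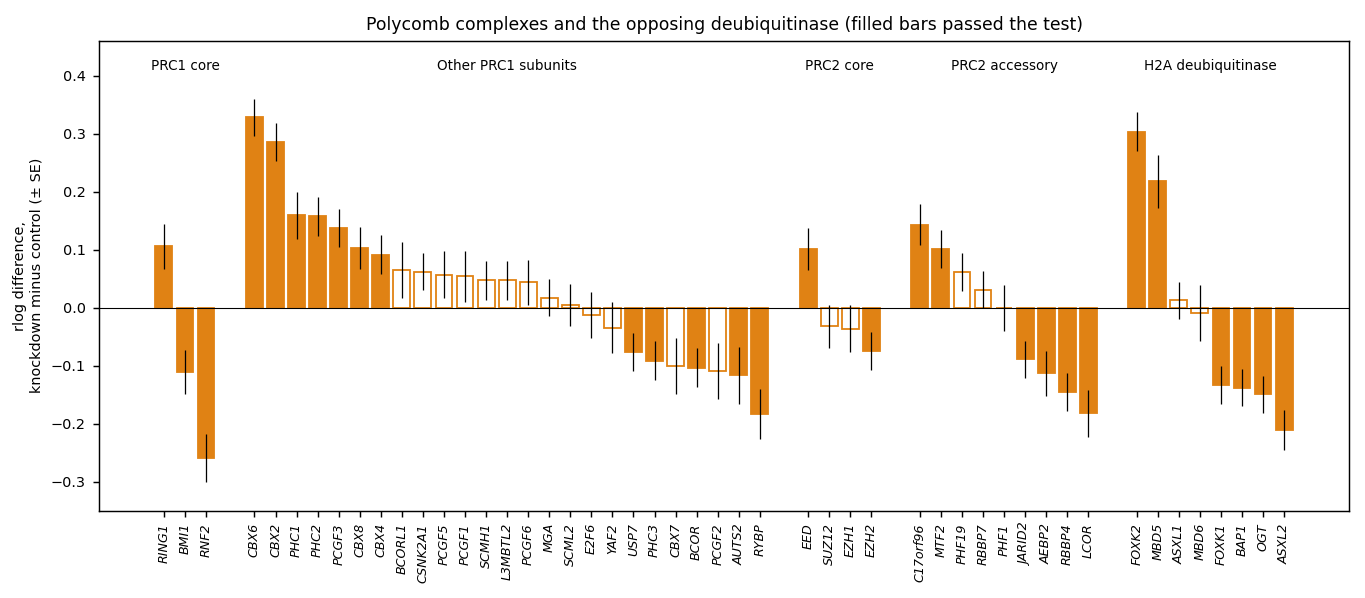
Difference in rlog expression (vertical axis, knockdown minus control, bars with standard error) for subunits of PRC1, PRC2 and the H2A deubiquitinase complex; filled bars passed the test and open bars did not. RNF2 is the lowest bar of all at -0.26, and CBX6, FOXK2 and CBX2 are the highest at 0.33, 0.30 and 0.28.

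PRC2 core genes differed by small amounts. EZH2 (chromosome 7), the main H3K27 methyltransferase, had 13.69 and 13.68 in knockdown libraries and 13.76 and 13.77 in control libraries, a call at the edge of the threshold (-0.07 ± 0.03, SE; limma, adjusted p = 0.0466). It was lost without any 1 of the 4 libraries, with differences of -0.08 and -0.07 without control replicates 1 and 2 (adjusted p = 0.0891 and 0.125) and -0.08 and -0.07 without knockdown replicates 1 and 2 (0.151 and 0.214). EED (chromosome 11), which binds methylated H3K27 and stimulates the enzyme, had 12.10 and 12.02 in knockdown libraries against 11.98 and 11.94 in control libraries and rose by 0.10 ± 0.04 (limma, adjusted p = 0.0170). Its call was lost without control replicate 2 (0.08, adjusted p = 0.0978) and without knockdown replicate 1 (0.06, 0.361). SUZ12, the scaffold subunit, had 12.15 and 12.03 in knockdown libraries and 12.12 in each control library. These groups overlapped, and the difference of -0.03 ± 0.04 did not pass. EZH1, the paralogue of EZH2 that predominates in resting cells, differed by -0.04 ± 0.04 and did not pass. EZH2 and SUZ12 have pseudogene copies in GENCODE 29 that could take part of their reads. Of 9 tested accessory subunits of PRC2, 2 were higher and 4 lower (22.2% and 44.4%, median 0.00), where 22.1% and 22.4% of all tested rows were. Among them were falls of 0.15 ± 0.03 for RBBP4, a histone-binding subunit, and 0.18 ± 0.04 for LCOR, whose locus encodes a PRC2-binding isoform. C17orf96 (EPOP), an elongin-binding subunit, rose by 0.14 ± 0.03. The C17orf96 call was lost without knockdown replicate 2 (0.10, adjusted p = 0.101), when the list had 1 higher and 2 lower; without knockdown replicate 1 and with the GC and length trend removed it also had 1 higher.

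The H3K27 demethylases, which oppose PRC2, moved in opposite directions on the values as deposited. KDM6A (UTX, chromosome X), a tumour suppressor in T-ALL, had 11.99 and 11.98 in knockdown libraries and 12.10 and 12.09 in control libraries, a fall of 0.11 ± 0.04 (SE; limma, adjusted p = 0.00816). KDM6B (JMJD3, chromosome 17), its inducible paralogue, had 11.14 and 11.10 in knockdown libraries against 10.78 and 11.05 in control libraries, and was called higher by 0.20 ± 0.04 (limma, adjusted p = 8.92e-06). The control libraries of KDM6B had an SD of 0.19, against 0.03 in the knockdown libraries, so the shared spread behind the SE understates its own. Without control replicate 1 its difference was 0.07 (adjusted p = 0.286), and the authors' deposited table gives 1.20-fold with an adjusted p of 0.293. The KDM6A call was lost without knockdown replicate 2 (-0.10, adjusted p = 0.1003). With the trend of each library with GC content and length removed, KDM6A was not called (-0.06; limma, adjusted p = 0.0664). KDM6B was still called higher in that fit (0.16). KDM6A minus KDM6B in rlog was 0.85 and 0.88 in knockdown libraries and 1.32 and 1.04 in control libraries, with no overlap. The mean difference was -0.31, or -0.22 with the trend of each library with GC content and length removed. As for the other pairs, an exact permutation test can give no p below 0.333.

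H3K9 methyltransferases held 1 change among 6 tested genes (16.7%, where 44.4% of all tested rows were called). EHMT1 (GLP, chromosome 9) had 12.99 and 13.01 in knockdown libraries and 12.85 and 12.88 in control libraries, a rise of 0.14 ± 0.03 (SE; limma, adjusted p = 0.000247), 1.19-fold in the authors' deposited table. EHMT2 (G9a), with which it forms a heterodimer, differed by 0.07 ± 0.03 (limma, adjusted p = 0.0749) and did not pass. SETDB1 at -0.05 ± 0.03, SUV39H1 at 0.03 ± 0.04, SUV39H2 at 0.03 ± 0.03 and SETDB2 at 0.00 ± 0.04 did not pass either. Among 9 tested H3K9 demethylases 2 were higher and 1 lower (22.2% and 11.1%), where 22.1% and 22.4% of all tested rows were. KDM4B (chromosome 19), which acts on trimethylated H3K9, had 13.43 and 13.46 in knockdown libraries against 13.25 and 13.37 in control libraries and rose by 0.13 ± 0.03 (limma, adjusted p = 0.000254). KDM4A (chromosome 1), its paralogue, had 13.15 and 13.27 in knockdown libraries and 13.10 and 13.09 in control libraries, a rise of 0.12 ± 0.03 (limma, adjusted p = 0.00121). KDM4C and KDM4D, of the same family, differed by 0.04 ± 0.03 and 0.10 ± 0.05 without passing. KDM3A, a hypoxia-inducible demethylase, fell by 0.08 ± 0.03 (limma, adjusted p = 0.0304). KDM3B, PHF8, KDM7A and PHF2 lay between -0.05 and -0.02 and did not pass.

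Single libraries decided several of these calls. KDM4B was not called without control replicate 1 (0.07, adjusted p = 0.128) nor KDM4A without knockdown replicate 2 (0.06, 0.323). KDM3A was not called without control replicate 2 (-0.06, 0.197), knockdown replicate 1 (-0.10, 0.0634) or knockdown replicate 2 (-0.06, 0.283). Among 14 tested readers of H3K9 methylation and subunits of the LSD1 complex 6 were higher and 3 lower (42.9% and 21.4%, median 0.03). Of all tested rows 22.1% were higher and 22.4% lower. RCOR2, a corepressor that binds LSD1, had 11.26 and 11.30 in knockdown libraries and 10.84 and 10.89 in control libraries, a rise of 0.42 ± 0.04 (SE; limma, adjusted p = 1.00e-21) and 1.74-fold in the authors' deposited table. The heterochromatin protein 1 genes CBX5 and CBX1 fell by 0.24 ± 0.03 and 0.15 ± 0.03. Without knockdown replicate 2 the list had 3 higher.

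Genes acting on H3K36, H3K79 and H4K20 rose or did not pass. SUV420H2 (chromosome 19), which adds the later methyl groups to H4K20, had 11.55 and 11.58 in knockdown libraries and 11.38 and 11.45 in control libraries, a rise of 0.15 ± 0.04 (SE; limma, adjusted p = 0.000483). SETD8 (chromosome 12), the H4K20 monomethyltransferase needed for S phase and mitosis, had 12.94 and 13.04 in knockdown libraries against 12.85 and 12.84 in control libraries and rose by 0.14 ± 0.03 (limma, adjusted p = 0.000125). SUV420H1 differed by 0.07 ± 0.04 and did not pass. KDM2B (chromosome 12), an H3K36 demethylase that also brings variant PRC1 to CpG islands, had 13.73 and 13.74 in knockdown libraries and 13.62 and 13.63 in control libraries, a rise of 0.11 ± 0.03 (limma, adjusted p = 0.00259). Its paralogue KDM2A differed by 0.01 ± 0.03 and did not pass. The H3K36 methyltransferase SETD2, a tumour suppressor, had 13.86 and 13.84 in knockdown libraries and 13.88 and 13.89 in control libraries, a difference of -0.03 ± 0.03 that did not pass, nor did ASH1L at -0.02 ± 0.03. DOT1L (chromosome 19), the only known H3K79 methyltransferase and a cofactor of MLL fusion proteins, had 12.84 and 12.77 in knockdown libraries and 12.66 and 12.75 in control libraries and rose by 0.10 ± 0.03 (limma, adjusted p = 0.00802).

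Of these, SETD8 was not called without knockdown replicate 2 (0.09, adjusted p = 0.123), nor was KDM2B (0.10, 0.0600). DOT1L was not called without control replicate 1 (0.06, 0.253) or knockdown replicate 1 (0.07, 0.240). SETD8 has a processed pseudogene in GENCODE 29. Among 10 tested DOT1L and MLL fusion partner genes 2 were higher and 4 lower (20% and 40%, median -0.06). Of all tested rows 22.1% were higher and 22.4% lower. CCNT1, the cyclin of the elongation kinase P-TEFb, fell by 0.13 ± 0.03 (SE) and AFF4, the scaffold of the super elongation complex, by 0.14 ± 0.03. MLLT1, a reader of acetylated histones, rose by 0.16 ± 0.04. AFF4 was not called without knockdown replicate 2 (-0.10, adjusted p = 0.0750), when the list had 1 higher and 2 lower, and without control replicate 1 it had 1 higher. The lower count was also 2 with the GC and length trend removed. Among HOXA genes and MEIS1, known targets of MLL1 and DOT1L in leukaemia, 1 of 9 tested rose, HOXA7 at 0.20 ± 0.05 (limma, adjusted p = 0.000202). That is 11.1%, where 22.1% of all tested rows were higher. HOXA9 and HOXA10 were listed at 0. Without control replicate 2 the list had 2 higher.

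PHF6, an X-linked PHD finger protein mutated in T-ALL that binds the NuRD remodelling complex, had 13.53 and 13.40 in knockdown libraries and 13.59 and 13.53 in control libraries. The groups were barely apart, and the call of -0.10 ± 0.03 (SE; limma, adjusted p = 0.00894) was not shared by the authors' deposited table (adjusted p = 0.05005). It was lost without control replicate 1 (-0.07, adjusted p = 0.173) and without knockdown replicate 2 (-0.04, 0.576), and with the trend of each library with GC content and length removed the difference turned to 0.011 (0.694). The remaining SET-domain and JmjC genes did not pass: SETD5 at -0.05 ± 0.03, SETD3, an actin histidine methyltransferase, at -0.01 ± 0.03, SETD4 at 0.08 ± 0.04, SETD9 at 0.06 ± 0.04 and KDM8 at -0.06 ± 0.05.

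Related enzyme families outside the name rule gave further values. Of 10 tested protein arginine methyltransferases and their cofactors, 5 were higher and 0 lower, where 22.1% of all tested rows were higher and 22.4% lower, with a median of 0.08 beside 0.00 over all tested rows. PRMT1, the main asymmetric arginine methyltransferase, had 15.33 and 15.40 in knockdown libraries and 15.15 and 15.16 in control libraries, a rise of 0.21 ± 0.03 (SE; limma, adjusted p = 3.22e-10). PRMT5, the main symmetric one, rose by 0.19 ± 0.03 and PRMT3, which acts on a ribosomal protein, by 0.17 ± 0.04. Of 9 other lysine methyltransferases 2 were higher and 1 lower, SMYD2 and SMYD3 rising by 0.13 ± 0.04 each and PRDM2 falling by 0.13 ± 0.04; PRDM2 was not called without knockdown replicate 2 (-0.10, adjusted p = 0.145), and with the GC and length trend removed 5 were higher. Of 10 other JmjC proteins 1 was higher and 3 lower. JMJD1C fell by 0.24 ± 0.03 and HSPBAP1 by 0.22 ± 0.05, while JMJD8 rose by 0.16 ± 0.04. The higher count of that list was 2 with re-centred libraries, 3 with the GC and length trend removed and 3 without control replicate 2.

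The direction of the differences ran with base composition. Over all tested genes with a transcript in GENCODE 29, the median difference was -0.08 in the lowest decile of transcript GC content and 0.08 in the highest. The 12 genes that were higher had a median GC content of 57.3% (39.1% to 66.1%), and the 11 that were lower 43.5% (36.5% to 59.1%). With the trend of each library with GC content and transcript length removed, 16 of the 53 were higher and 8 lower, and 16 of the 23 calls remained. Rises were then 66.7% of calls, against 52.2% on the values as deposited. Over all genes they were 54.4% of calls among the 12719 that could be fitted with the trend removed. On the values as deposited they were 49.7% of calls among all 14601 rows, a larger set. KMT2A differed by -0.21, RNF2 by -0.18, KMT2E by -0.10, KDM5A and KDM5B by -0.08 each, EHMT1 by 0.12 and KDM6B by 0.16 in that fit, all called. BMI1 (-0.04, adjusted p = 0.227), KDM6A (-0.06, 0.0664), KDM3A (-0.04, 0.113), EZH2 (-0.05, 0.0644), RING1 (0.03, 0.348), SUV420H2 (0.06, 0.0636) and PHF6 were not. The 8 genes called only there were KDM8 and KDM5C, which were lower, and SETDB2, SUV39H2, KDM4C, SUV420H1, SETD4 and KDM4D, which were higher.

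**Figure D4:**
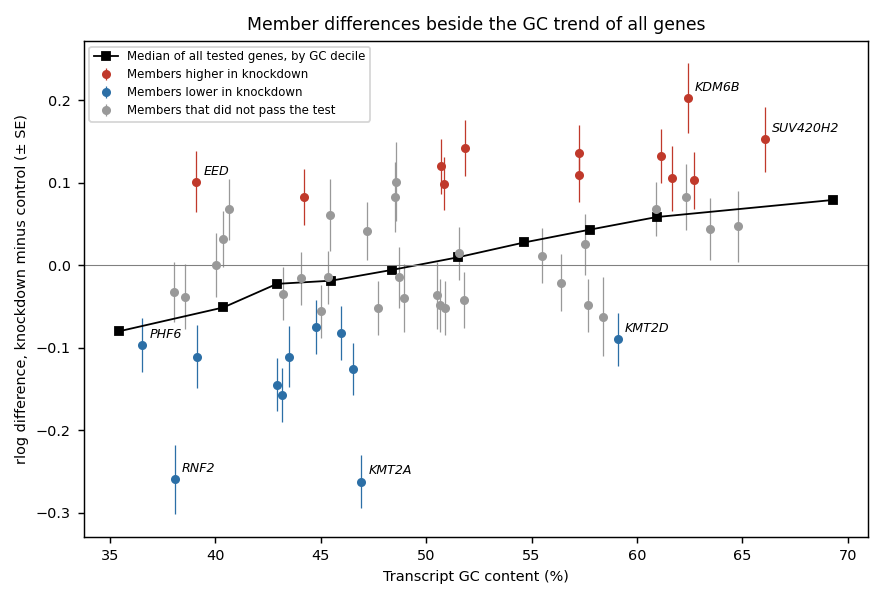
Difference in rlog expression (vertical axis, knockdown minus control, with standard error) against the GC content of the gene's transcript (horizontal axis, percent) for the 53 tested genes; black squares join the medians of all tested genes by GC decile, each at the middle of its decile's range. KMT2A and RNF2 lie far below the black line and EED above it, while PHF6, at 36.5% GC, lies near it.

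KMT2A, RNF2 and KDM5A each carry at least 1 of a pair of overlapping words in their 3′ UTRs. The words GATGACA and AGATGAC, of 7 bases each, were picked in an earlier look at these same data because genes carrying them were lower, so their presence is no independent evidence. They overlap each other by 6 bases. The 3′ UTR searched was that of each gene's longest coding transcript, read on the transcript strand only. Where it had none, as for SUV39H2, KDM3A and SETD1B, the longest 3′ UTR among the gene's coding transcripts was searched. Of the 53 genes, 4 (7.55%) carried at least 1 of the words, where 13.4% of 12549 tested genes with a 3′ UTR did. Of these 4, KMT2A, RNF2 and KDM5A were lower and SUV420H1 was not called; the 49 others held 12 higher and 8 lower genes. Over all tested genes with a 3′ UTR, 722 of 1683 carriers were lower and 176 higher, against 2177 lower and 2841 higher of 10866 non-carriers. A pair of words picked in the same way among genes that were higher, TGTTGTC and GTTGTCA, occurred in 8 of the 53 genes (15.1%, beside 15.3% of all), of which 2 were higher and 0 lower. Over all tested genes with a 3′ UTR, the 1920 carriers of this second pair held 464 higher and 494 lower genes. The 10629 non-carriers held 2553 higher and 2405 lower. Median differences were -0.0015 in these carriers and 0.0038 in the non-carriers. The 4 sites are shown because 3 of them lie in genes among the 4 largest falls, and the fourth for comparison; each is 30 bases of the transcript from GENCODE 29, 5′ to 3′, with the word or overlapping words in capitals.
KMT2A: aagagctcaacAGATGACAagcttcttttc
RNF2: tagattttgttGATGACAttagattagtag
KDM5A: aaaagagaagaAGATGACgatgatgaccag
SUV420H1: gtgaacaacgtGATGACAacaagcaacatt
On GRCh38 these lie at chr11:118526464-118526493 on the plus strand for KMT2A, chr1:185102000-185102029 on the plus strand for RNF2, chr12:284613-284642 on the minus strand for KDM5A and chr11:68156872-68156901 on the minus strand for SUV420H1. KMT2A carries both words in 1 run of 8 bases, and the others carry 1 word each. Whether the words have a part in the falls was not tested. KMT2E and KDM5B, which also fell, carry neither.

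Length-scaled levels placed these genes over a wide range. Mean rlog minus log2 of the transcript length in kilobases was 13.91 in knockdown and 13.81 in control libraries for KDM1A, the highest of the 50 genes placed. SUV39H2, KDM3A and SETD1B were not placed, since the transcript that gives their length has no annotated 3′ UTR. EZH2 followed at 12.29 in knockdown and 12.36 in control libraries. KDM4D (6.89 in knockdown and 6.79 in control libraries) and SETD9 (6.72 in knockdown and 6.66 in control libraries) were the lowest. KMT2A stood at 9.99 in knockdown and 10.25 in control libraries. RNF2 stood at 9.04 in knockdown and 9.30 in control libraries, below its paralogue RING1 at 10.76 in knockdown and 10.65 in control libraries. The differences between groups described above are small beside these differences between genes.

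**Figure D5:**
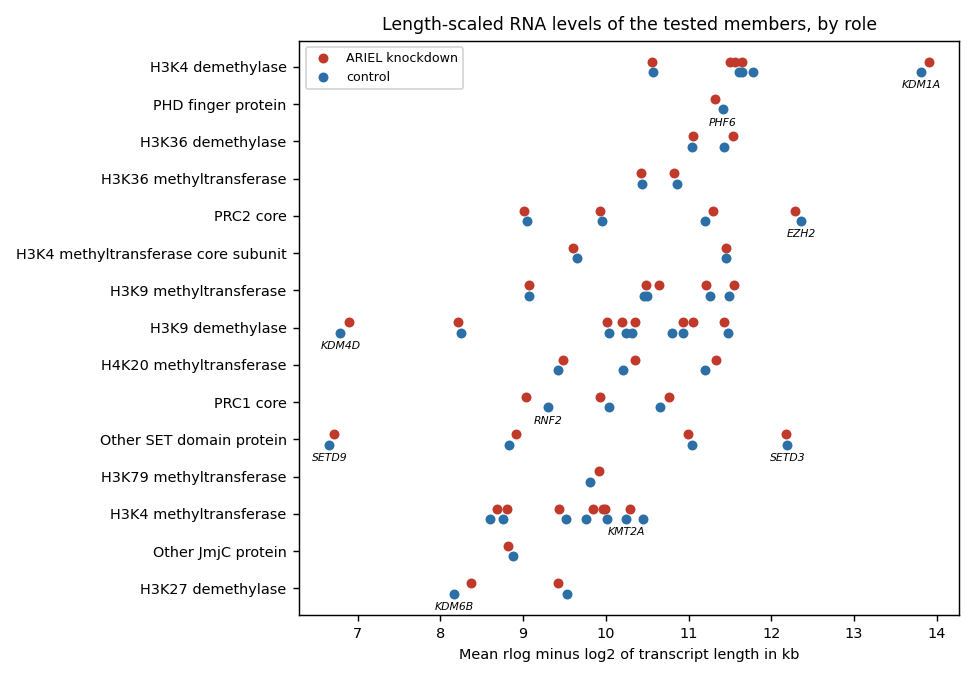
Length-scaled level (horizontal axis, mean rlog minus log2 of transcript length in kilobases) of 50 of the 53 tested genes in rows by the role of the protein, knockdown means in the upper line of each row and control means in the lower. KDM1A lies furthest right, near 13.9, and KDM4D and SETD9 furthest left, under 7.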

How the data were processed

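Per the labels' protocols, libraries kept strand, were sequenced as pairs of 100 bases and held ERCC spike-ins scaled to cell number. The submitters' processing notes list DESeq2 1.12.4, HTSeq 0.6.1, STAR 2.5.2a and the build hg19, with no roles. Filters, annotation, strand setting and the scaling of libraries before rlog: not given in the sources used here. The authors deposited, per the file headers, for each library 1 rlog value on the log2 scale, and for each gene a log2 fold change with its SE, a test score, a p-value and an adjusted p-value.

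Since the values are logarithms, limma 3.58.1 under R 4.3.3 (lmFit, then eBayes with trend) was run on all 4 libraries with no pseudocount. Its prior degrees of freedom were infinite, so genes of a level share 1 spread: SEs are too small for genes that vary more. The test was tested on simulated data whose noise was drawn with this same shared spread. Such data cannot show whether sharing the spread is right. Transcript length, GC content, 3′ UTRs and exon overlaps came from GENCODE 29, matched by gene ID for 19319 of 20125 Ensembl rows and all 55 genes here. Chromosomes are as deposited, and base coordinates are from GENCODE. Genes on opposite strands that overlap KMT2A, KMT2E, KDM5A, KMT2D, EHMT1, DOT1L, KDM2B and KDM4A cannot be told apart from them if counting ignored strand. Exons of KMT2A, BMI1, EED, KDM4A and EHMT1 overlap those of a gene on the same strand, which counting by strand would not separate. Antisense and pseudogene reads were not separated.

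The members, and the lists of partners, were chosen with earlier results of these data known; the lists come from general knowledge of the complexes. All members are named in the text. Values in each library are given for called members with the 8 highest and the 8 lowest differences and for 10 members fixed for known roles. They are also given for KMT2D and KDM1A. From each partner list up to 3 called genes were picked by adjusted p. BAP1, HOXA9 and HOXA10 were named outside that rule. The pairs of genes set against each other within libraries were chosen after their values were seen, as was removing the trend from them. EZH2 against EED and KDM5A against KDM5C were also set, and differed by -0.18 and -0.10. With the trend removed these were -0.20 and -0.01, and the groups of the KDM5 pair then overlapped. GC and length trends were fitted in each library as splines with 5 degrees of freedom over 12719 genes and subtracted. Figures were drawn with matplotlib 3.10.9. Results for some genes of the HOXA and marker lists are not reported here.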

Additional observations from a re-analysis of the deposited data

How the results depend on the processing

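In the fit with each gene's own variance and no sharing of the spread, limma called 0 genes higher and 0 lower, both among the 53 and over all 14601 rows (4561 rows at an unadjusted p under 0.05, 12 of the 53 among them), and XLOC_005968 had a difference of -1.40 (adjusted p = 0.0791); every call therefore rests on sharing the spread. With no trend on level, 7 of the 53 were lower. Leaving out 1 library at a time gave 6 to 12 higher and 5 to 9 lower among the 53, 2004 to 3061 higher and 2221 to 3127 lower over all rows, and -1.45 to -1.34 for XLOC_005968, the targeted RNA. KMT2A, RNF2, KMT2E, KDM5A, KDM5B and EHMT1 were called in the same direction in 13 of 14 alternatives, own variance being the exception; EZH2 was called in 3, PHF6 and KDM3A in 6, and KMT2D in 7. PHF6 turned to 0.011 with the GC and length trend removed, with or without the replicate block, and the cause was not tested further. Libraries with the same replicate number deviated together (r = 0.198 across genes, -0.00338 after the trend was removed), but nothing in the labels ties the numbers to a shared batch. With the replicate block as a term, 16 of the 53 were higher and 12 lower (3722 and 3704 over all rows); the block kept all 23 calls and added KMT2C, SUV420H1, EHMT2, SETD4 and SETD1A, and the other JmjC proteins had 4 higher. The replicate block with the trend removed gave 16 higher and 8 lower. Of 82 named genes, the stricter filter (mean of at least log2 of 100) changed 0 calls, re-centring 1, quantile normalization 4, no filter 4 and the deposited statistics 4. Depth is unknown, so no counting error or detection limit can be given.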
